A study of Mus musculus with 6 samples.

Results

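The HIN-200 genes of the mouse were followed here in BV2 cells, an immortalized microglial cell line, with Ifi204 and Aim2 as the best known of them. The 8 members were found by their gene symbols, Ifi204, Ifi203, Ifi207, Ifi209, Ifi211, Ifi213, Mndal and Aim2, among 22672 listed genes, and all 8 were listed in every library. RNA was sequenced from 6 libraries. There were 3 from cells labelled shscr-ctr and 3 from cells labelled shNumb-ctr. By the usual reading these names stand for a scrambled control hairpin and for a hairpin against Numb. The series title links Numb and Ifi204 to microglial activation after lipopolysaccharide, but the labels name no treatment, and the suffix ctr is not explained. They also do not say which vector or cell clones were used, or whether the 3 libraries of a group came from separate cultures. The p-values below therefore measure the spread between these libraries only, which may be technical.

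HIN-200 proteins pair a DNA-binding HIN domain with, in most members, a pyrin domain that binds other pyrin domains. Many of the genes are induced by interferon, and they serve macrophages and microglia as receptors or regulators that respond to DNA. AIM2 detects double-stranded DNA in the cytosol and assembles an inflammasome through the adaptor ASC. The Ifi204 protein, p204, acts in the nucleus on transcription factors and the cell cycle, and in the cytosol it passes DNA signals to STING, a role it shares with human IFI16. The p202 protein of Ifi202b has no pyrin domain and restrains AIM2.

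The family forms a block on chromosome 1. In GENCODE release M21 (GRCm38), 14 family genes lie within 681 kb, from chr1:173350879 to chr1:174031810. Aim2 stands at the proximal end, and Ifi204 (chr1:173747293-173766943, reverse strand, 9 exons in its longest coding transcript) lies in the middle next to Ifi207 (chr1:173723427-173741747). Mndal (chr1:173849126-173942491) is annotated across Ifi211 (chr1:173896345-173913046) and most of Ifi203 (chr1:173920407-173942672) on the same strand. The overlap is one of whole gene spans, introns included. Reads of these 3 genes may have been exchanged, which was not tested. Aim2 (chr1:173350879-173466040) overlaps Cadm3 on the opposite strand, and Cadm3 was listed at 0 in all 6 libraries. Of 28 listed genes of other families within 500 kb of the block, 27 were listed at 0 throughout.

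Near the starts of many family genes lies the same short element. It has the form GAAANNGAAA, the core that interferon-activated transcription factors are known to bind, and it was searched on both strands from 250 bases before to 50 bases after each start in the RefSeq promoter table (GRCm38.p6). That table matched 7 of the 8 members, all but Ifi204, and 5 of the 7 held the element, as did 4 of 5 other family genes. It occurred in 3.99% of all 27025 genes with a promoter, and in 20 of 39 interferon-stimulated genes outside the family. The stricter form GAAATCGAAA, chosen after the promoters had been read, was held by 16 genes in all (0.0592%), of which 7 belong to this family. These copies are relatives by gene duplication and are not independent of each other. The windows below are shown because genes with very different levels in these cells carry an element of the form GAAANNGAAA, which is in capitals. It reads GAAATTGAAA in Ifi211 and Ifi205 and GAAATCGAAA in the others. A relation between the element and the level was not tested.
Ifi207 (reverse strand, chr1:173741821-173741870): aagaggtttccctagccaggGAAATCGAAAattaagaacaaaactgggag
Ifi211 (reverse strand, chr1:173913054-173913103): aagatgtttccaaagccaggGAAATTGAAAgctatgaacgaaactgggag
Mndal (reverse strand, chr1:173880194-173880243): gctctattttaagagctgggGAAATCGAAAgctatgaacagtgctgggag
Ifi203 (reverse strand, chr1:173942498-173942547): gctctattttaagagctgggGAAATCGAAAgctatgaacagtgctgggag
Ifi205 (reverse strand, chr1:174031860-174031909): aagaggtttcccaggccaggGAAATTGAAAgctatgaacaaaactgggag
Ifi213 (reverse strand, chr1:173599316-173599365): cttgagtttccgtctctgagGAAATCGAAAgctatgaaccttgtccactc
Ifi206 (reverse strand, chr1:173491329-173491378): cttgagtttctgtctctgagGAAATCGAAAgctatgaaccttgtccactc

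Counted from the start to which the window shown belongs, the element began 41, 37, 36, 35 and 73 bases ahead in Ifi207, Ifi211, Mndal, Ifi203 and Ifi213. Mndal and Ifi203 have a second start. That of Mndal held an element on the opposite strand, 54 bases ahead, and that of Ifi203 held none. The windows of Mndal and Ifi203 matched at all 50 bases. Those of Ifi213 and Ifi206 matched at 49, and Ifi213 and Mndal at 29. The promoters of Aim2 and Ifi209 held no such element in this window. A match of letters describes these sequences and does not show that a factor binds there.

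The members also share transcript sequence, which bears on how well their levels can be told apart. Windows of 50 bases were taken every 10 bases along the longest coding transcript, untranslated parts included. Of those of Ifi211, 73.0% also occurred in another gene. The shares were 35.1% for Ifi209, 30.7% for Ifi204, 28.1% for Ifi213, 27.8% for Mndal, 11.1% for Ifi203, 7.4% for Ifi207 and 0.4% for Aim2. Genes above 20% are called uncertain here, which puts Ifi211, Ifi209, Ifi204, Ifi213 and Mndal in that class. The class does not weigh how highly the partner gene was expressed in these libraries. Ifi204 shared most with Ifi211, at 23.1% of its windows, and Ifi211 shared 44.8% of its own with Ifi205 and 29.9% with Ifi204. The following coding run of 108 bases is shown because it is identical in Ifi204, Ifi207 and Ifi211, so that a short read from it cannot be placed by its letters alone. In Ifi204 it covers coding bases 235 to 342 and crosses an exon junction (reverse strand, between chr1:173760250 and chr1:173761629).
Ifi204, Ifi207 and Ifi211: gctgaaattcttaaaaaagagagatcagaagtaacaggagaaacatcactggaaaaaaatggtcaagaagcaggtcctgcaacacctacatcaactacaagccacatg

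**Figure D1:**
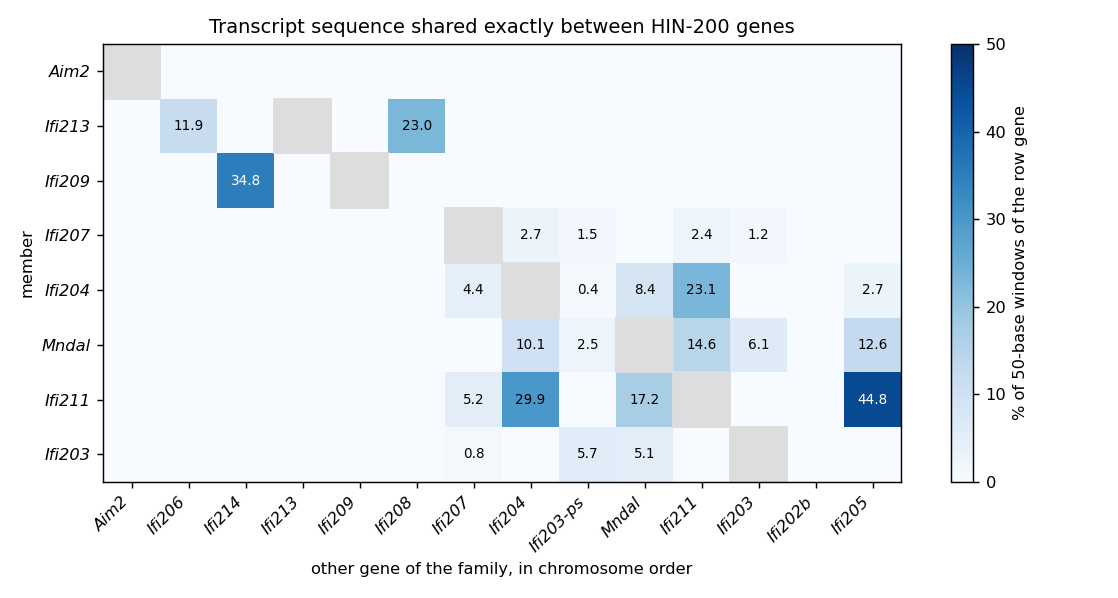
Percentage of the 50-base transcript windows of each member (rows) that occur exactly in each other gene of the family (columns, in chromosome order), with grey on the diagonal and blank cells at 0. Ifi211 shares windows with Ifi204, Mndal, Ifi205 and Ifi207, Mndal also with Ifi204, Ifi205 and Ifi203, Ifi213 shares with Ifi206 and Ifi208, Ifi209 with Ifi214, and Aim2 with no other family gene.

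Of the 8 members, 6 were expressed at levels that could be tested, and Ifi209 and Ifi213 were at or near 0. The deposited values, whose unit is not named, are read here as FPKM, the fragments per kilobase of transcript scaled to depth. Aim2 and Ifi207 had the highest levels, with means over all libraries of 22.7 and 20.9. Ifi204 (13.99) and Mndal (13.62) followed, then Ifi203 (6.41) and Ifi211 (3.84). In the shscr-ctr libraries Ifi204 and Mndal could not be ordered, at 12.8 to 13.1 and 12.6 to 13.2 FPKM. The lowest Aim2 library there, at 20.3, was above the highest Ifi207 library, at 19.65. The next steps down, from Mndal to Ifi203 and on to Ifi211, also had ranges that did not overlap within a group. Aim2 exceeded 67.5% of the 10594 tested genes in mean level, Ifi204 52.3% and Ifi211 16.6%.

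Ifi209, also known as Pyhin1, had 0.205, 0.189 and 0.125 FPKM in the shscr-ctr libraries, given here and below in the order of replicates 1, 2 and 3, and 0.154, 0.410 and 0.197 in the shNumb-ctr libraries. The groups overlapped, and the highest value was that of shNumb-ctr replicate 2. Ifi213 was listed at 0 in 5 libraries and at 0.0240 in shscr-ctr replicate 3. Both were below the filter of at least 1 FPKM in 3 libraries and were left out of the main test. With no filter neither passed, at log2 differences of 0.09 for Ifi209 and -0.01 for Ifi213 (limma adjusted p = 0.521 and 0.706). Of the other listed family genes, Ifi205 had a mean of 0.572, Ifi206 reached at most 0.0673, and Ifi208 was above 0 in 1 library. Ifi214 and Ifi202b were listed at 0 in all 6. The 5 neighbours Ifi206, Ifi214, Ifi213, Ifi209 and Ifi208, which follow each other on the chromosome between Aim2 and Ifi207, were thus all below 0.5 FPKM in every library.

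**Figure D2:**
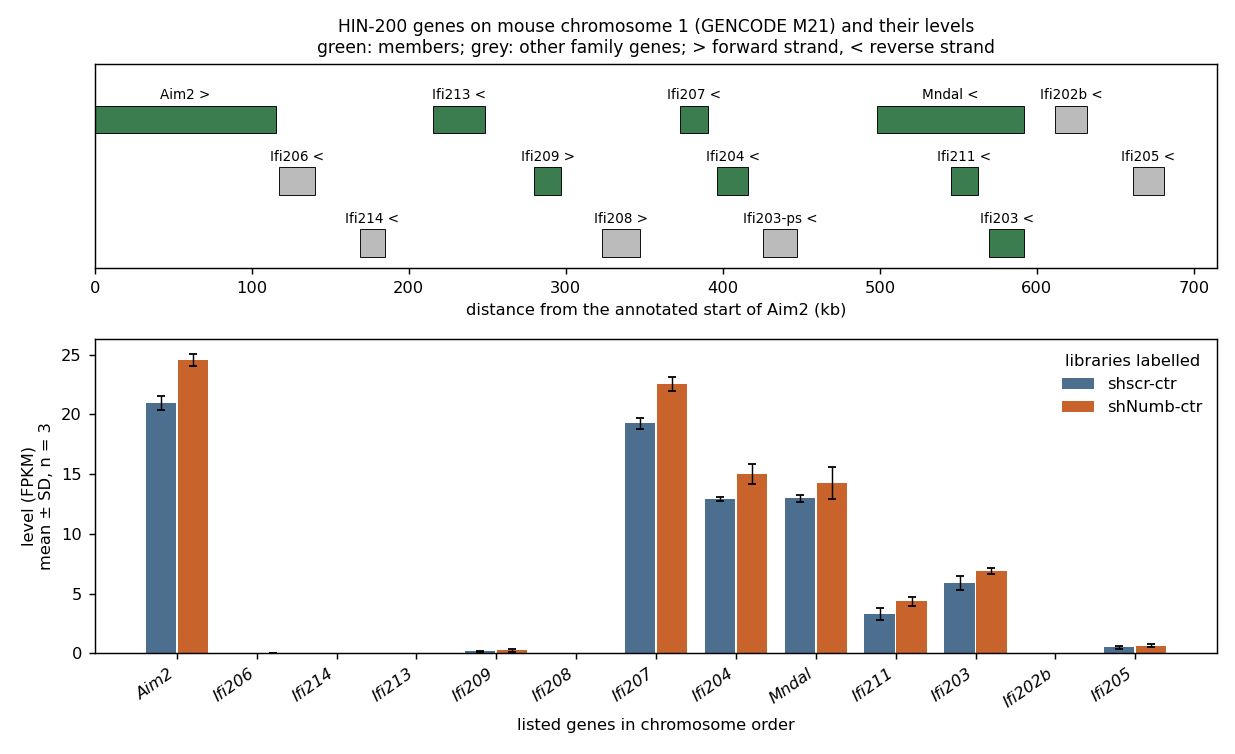
Upper panel, the family genes drawn to scale by their distance in kb from the annotated start of Aim2; lower panel, their mean level in FPKM with the SD of 3 libraries, for the listed genes in chromosome order, with no SD drawn where a library is at 0. Aim2 and the genes from Ifi207 to Ifi203 carry nearly all of the signal, and the stretch from Ifi206 to Ifi208 is close to 0.

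The comparison the design implies is shNumb-ctr against shscr-ctr. Aim2, Ifi207 and Ifi204 rose in the shNumb-ctr libraries, by folds of 1.17, 1.17 and 1.16, and no tested member was called lower. In the limma fit over all tested genes, 3 of the 6 tested members were called higher at an adjusted p under 0.05, against 8.11% of all tested genes, and 0 were called lower, against 10.7% (18.8% in either direction). The tested members had log2 fold changes between 0.12 and 0.31 with a median of 0.21, where the median over all tested genes was -0.02 and the 90th percentile 0.18. For all 6 tested members every shNumb-ctr library lay above every shscr-ctr library, which held for 16.3% of tested genes, and for 0 of them every one lay below, which held for 23.6%. The members were chosen with earlier results of these data known, and several share sequence, so they are not independent of each other. The shares over all tested genes are given for scale and test no enrichment of the family. With 3 libraries against 3 the exact two-sided permutation test gave p = 0.1 for each tested member, the smallest it can give.

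Aim2, the cytosolic DNA sensor, had 21.50, 20.31 and 21.02 FPKM in the controls and 24.47, 24.10 and 25.07 in the shNumb-ctr libraries. The groups did not overlap, and the replicates of each lay close together. The group means were 20.94 ± 0.599 and 24.55 ± 0.489 (SD, n = 3), a fold of 1.17, and the log2 fold change was 0.22 (SE 0.037, 95% interval 0.14 to 0.30, limma adjusted p = 0.00717). With almost none of its windows shared, Aim2 is the member whose level is least open to exchange with relatives.

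Ifi207, the member encoded next to Ifi204, had 19.35, 18.77 and 19.65 FPKM in the controls and 23.10, 22.49 and 21.97 in the shNumb-ctr libraries. Again every shNumb-ctr value was above every control value. The fold of means was 1.17, from 19.25 ± 0.447 to 22.52 ± 0.569 (SD, n = 3), with a log2 fold change of 0.22 (SE 0.037, 95% interval 0.13 to 0.30, limma adjusted p = 0.00809). The calls for Aim2 and Ifi207 held in all 14 alternatives tried, where the limma adjusted p reached at most 0.0293 and 0.0348.

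Ifi204, the gene named in the series title, had 12.98, 13.12 and 12.79 FPKM in the controls and 15.51, 15.53 and 14.03 in the shNumb-ctr libraries. The controls were tightly grouped, and shNumb-ctr replicate 3 was nearest to them. The means were 12.96 ± 0.168 and 15.02 ± 0.861 (SD, n = 3), a fold of 1.16, with a log2 fold change of 0.20 (SE 0.048, 95% interval 0.09 to 0.31, limma adjusted p = 0.0269). This call was lost without shscr-ctr replicate 1, 2 or 3 (limma adjusted p = 0.0754, 0.0542 and 0.0776) and without shNumb-ctr replicate 1 or 2 (0.0869 and 0.0714), while the log2 fold change stayed between 0.17 and 0.24. Ifi204 is also in the uncertain class, with 30.7% of its windows shared, so its level may include reads of relatives or lack some of its own. Summed with Ifi211, with which it shared most windows, it was 15.75 to 17.04 FPKM in the controls. The same sum was 18.68 to 19.99 in the shNumb-ctr libraries, a fold of means of 1.19.

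**Figure D3:**
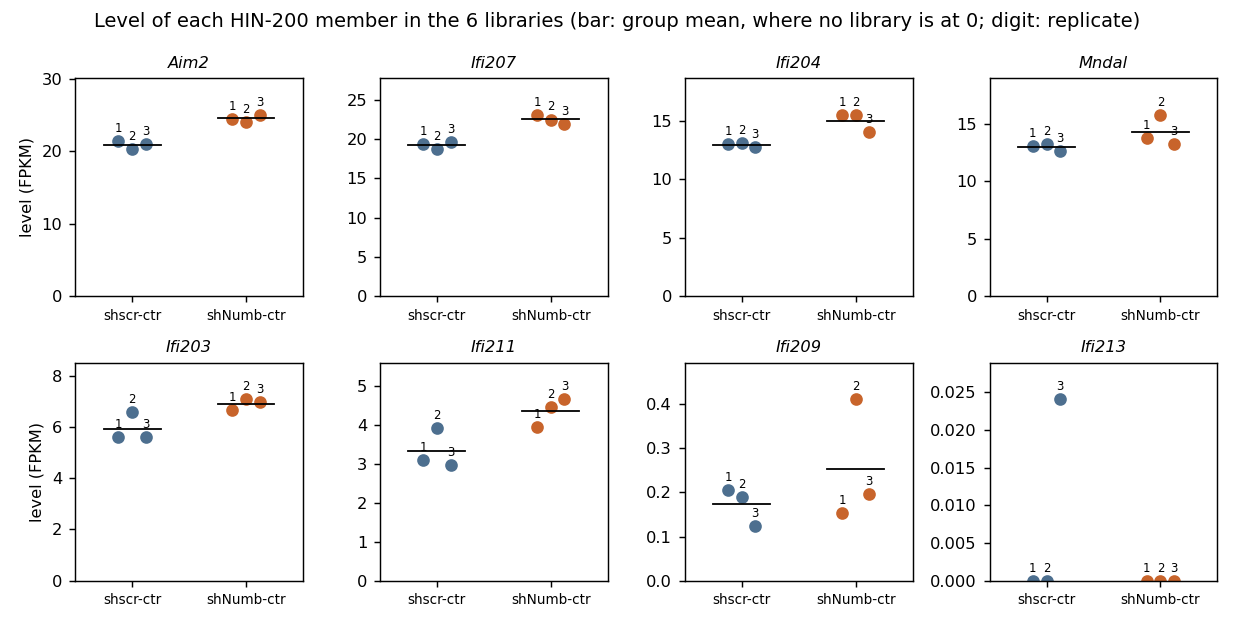
Level in FPKM of each of the 8 members in the 6 libraries, with the replicate number at each point and a bar at the group mean where no library is at 0; axes start at 0 and differ between panels. In the 6 members from Aim2 to Ifi211 every shNumb-ctr point is above every shscr-ctr point, and Ifi209 and Ifi213 show no such separation.

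Mndal, Ifi203 and Ifi211 had no call. Mndal, named for its likeness to the human myeloid nuclear differentiation antigen, was at 13.1, 13.2 and 12.6 FPKM in the controls and at 13.8, 15.8 and 13.2 in the shNumb-ctr libraries. Its highest value was in shNumb-ctr replicate 2, and the lowest shNumb-ctr value was next to the highest control. The fold of means was 1.10 with a log2 fold change of 0.12 (SE 0.063, 95% interval -0.02 to 0.27, limma adjusted p = 0.200), and 0.05 without shNumb-ctr replicate 2 (adjusted p = 0.458). That library also had the highest Ifi209 and stood apart in the inflammatory genes Il1b (4.14 FPKM against at most 0.810 elsewhere) and Cxcl10 (6.56 against at most 2.16), whose part in these values was not tested.

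Ifi203 was at 5.59, 6.60 and 5.59 FPKM in the controls and at 6.64, 7.07 and 6.98 in the shNumb-ctr libraries. Control replicate 2 reached almost to the lowest shNumb-ctr library. The fold of means was 1.16, as for Ifi204, but the spread of the controls was wider and the log2 fold change of 0.19 did not pass (SE 0.068, 95% interval 0.04 to 0.35, limma adjusted p = 0.0841). Ifi211 was at 3.10, 3.91 and 2.96 FPKM in the controls and at 3.95, 4.46 and 4.65 in the shNumb-ctr libraries, and control replicate 2 was again nearest to the other group. Its fold of 1.31 was the highest of the 6 tested members in size but not in precision (log2 0.31, SE 0.094, 95% interval 0.10 to 0.53, limma adjusted p = 0.0539). Without control replicate 2 both passed, at log2 fold changes of 0.26 for Ifi203 and 0.41 for Ifi211 (adjusted p = 0.0293 and 0.0198), and no other left-out library gave them a call.

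**Figure D4:**
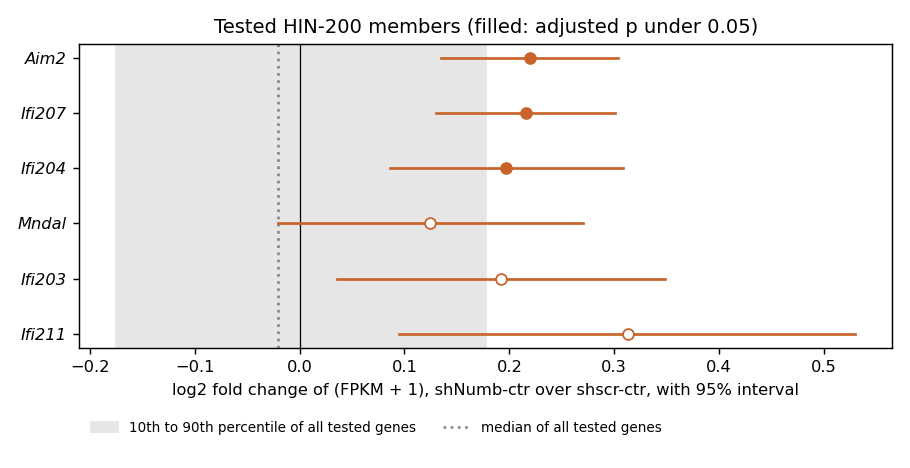
Log2 fold change of FPKM + 1 with its 95% interval for the 6 tested members (filled points, limma adjusted p under 0.05), with the 10th to 90th percentile of all tested genes shaded and their median dotted. All 6 points are above 0, and all but that of Mndal lie above the 90th percentile of 0.18.

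The 8 members together had 75.8, 76.1 and 74.8 FPKM in the shscr-ctr libraries and 87.6, 89.8 and 86.1 in the shNumb-ctr libraries, a fold of 1.16 with no overlap. Within that sum Ifi204 held 17.2% ± 0.0815 in the controls and 17.1% ± 0.724 in the shNumb-ctr libraries (SD, n = 3). The share of Aim2 was 27.7% ± 0.899 and 28.0% ± 1.14, and that of Ifi207 25.5% ± 0.806 and 25.6% ± 0.679. Mndal went from 17.2% ± 0.242 to 16.2% ± 1.19 and Ifi211 from 4.39% ± 0.649 to 4.96% ± 0.447, and for each of these 5 members the shares of the groups overlapped. The ratio of Ifi204 to Aim2 ranged from 0.604 to 0.646 in the controls and from 0.560 to 0.644 in the shNumb-ctr libraries. FPKM counts per length, so these are shares of transcripts only as far as the authors' gene lengths hold.

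Over the 6 libraries the genes outside the family with the pattern most like Ifi204 were Mrps14, Ero1b and Dnajb4. Their centred log2 values differed from those of Ifi204 by a root mean square of 0.0153, 0.0164 and 0.0225, the smallest among 8102 genes of at least 5 FPKM. The nearest to Aim2 were Procr, Glb1 and Fer (0.0134, 0.0155 and 0.0209). Within the family Ifi207 was nearest to both, at 0.0427 from Ifi204 and 0.0356 from Aim2, and 46 and 48 genes outside the family were nearer still. Ifi211, with the wider spread, was at 0.141 and 0.136. The 6 points share their 2 groups, so a gene with a similar step between the groups comes out as alike.

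Of 14 tested genes of the AIM2 inflammasome and its output, 3 rose, Ninj1 and Casp4 among them, and 0 fell, with a median log2 fold change of 0.08 (8.11% of all tested genes were called higher and 10.7% lower). The 3 calls became 2 without shscr-ctr replicate 2 or shNumb-ctr replicate 2, 1 without shscr-ctr replicate 1 or 3 or shNumb-ctr replicate 3, and 0 without shNumb-ctr replicate 1. They also became 1 with the replicate number as a block, and 1 with a filter of at least 5 FPKM in 3 libraries. Without replicate 2 of either group 1 gene was called lower. Casp4, which encodes mouse caspase-11, the receptor of intracellular lipopolysaccharide, went from 2.93 ± 0.177 to 3.92 ± 0.441 FPKM as mean ± SD of 3 libraries (log2 0.32, limma adjusted p = 0.0275). Ninj1, which ruptures the membrane of dying cells, went from 97.8 ± 2.78 to 107 ± 1.58 (log2 0.13, limma adjusted p = 0.0222). Ninj1 and Casp4 were still called in 9 of 14 and 6 of 13 alternatives, and their highest limma adjusted p was 0.0673 and 0.0725. Pycard, which encodes the adaptor ASC that AIM2 requires, was at most 0.0347 FPKM and was listed at 0 in 3 libraries. The effector genes Casp1 and Gsdmd were expressed, at 15.4 ± 1.39 against 14.2 ± 0.141 and at 62.0 ± 0.469 against 63.4 ± 1.26 FPKM (control against shNumb-ctr), and neither passed (limma adjusted p = 0.254 and 0.451). The cytokine gene Il18 was at 8.08 ± 0.669 against 9.497 ± 0.690 (log2 0.21, adjusted p = 0.0736).

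Of 20 tested genes of the STING route, which p204 feeds in mouse cells, Xrcc5 and Ikbke rose and Dhx9, Sting1 and Trex1 fell, and the median log2 fold change was -0.04. These 2 and 3 calls of 20 are near the shares over all tested genes, 8.11% higher and 10.7% lower. The higher calls came to 1 without shscr-ctr replicate 1 and to 3 without shscr-ctr replicate 2. The lower calls came to 2 without shscr-ctr replicate 1, 2 or 3, without shNumb-ctr replicate 1, and with no filter. Sting1, the adaptor itself, was at 33.1, 33.2 and 30.8 FPKM in the controls and at 25.4, 27.6 and 28.0 in the shNumb-ctr libraries (log2 -0.25, SE 0.048, limma adjusted p = 0.0116). Every shNumb-ctr library lay below every control, as it did for 23.6% of all tested genes, and a relation to Ifi204 was not tested. Xrcc5, the Ku80 subunit of a DNA end-binding complex, went from 13.3 ± 0.439 to 16.6 ± 0.275 (log2 0.30, adjusted p = 0.00368) and the kinase gene Ikbke from 14.6 ± 0.554 to 17.3 ± 0.710 (log2 0.23, adjusted p = 0.0143). Dhx9, a helicase, went from 55.3 ± 3.42 to 43.0 ± 2.99 (log2 -0.36, adjusted p = 0.00708), and Trex1, a DNA exonuclease, from 8.24 ± 0.286 to 5.93 ± 1.12 (log2 -0.43, adjusted p = 0.0291). The sensor gene Cgas was at 6.26 ± 0.196 against 6.35 ± 0.398 and the kinase gene Tbk1 at 15.4 ± 0.766 against 15.3 ± 0.621, and neither passed (adjusted p = 0.864 and 0.892). Trex1 and Ikbke were still called in 9 and 13 of 14 alternatives, and their highest limma adjusted p was 0.0858 and 0.0508.

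Of 16 tested interferon receptors, JAK, STAT, IRF and SOCS genes, Ifngr2 rose and Socs3, Irf1 and Irf8 fell, with a median log2 fold change of -0.04, where 8.11% of all tested genes were called higher and 10.7% lower. The 3 lower calls became 0 when replicate 1 of either group or replicate 3 of shNumb-ctr was left out, and 1 without replicate 2 of either group. Ifngr2, a chain of the interferon gamma receptor, went from 15.3 ± 0.651 to 18.5 ± 0.767 FPKM (log2 0.26, limma adjusted p = 0.00977). Irf1 went from 14.2 ± 0.331 to 12.7 ± 0.224 (log2 -0.16, adjusted p = 0.0294), Irf8, a factor of the myeloid lineage, from 39.5 ± 1.12 to 36.0 ± 0.414 (log2 -0.13, adjusted p = 0.0305), and the feedback inhibitor gene Socs3 from 12.7 ± 0.657 to 10.7 ± 0.437 (log2 -0.22, adjusted p = 0.0223). Irf1, Irf8 and Socs3 kept their calls in 7, 5 and 10 of 14 alternatives, and their highest adjusted p was 0.0915, 0.101 and 0.0728. Irf9 (log2 -0.12) and Irf7 (log2 0.15) did not pass (limma adjusted p = 0.258 and 0.251).

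Of 41 tested interferon-stimulated genes outside the family, 5 were called higher and 4 lower, with a median log2 fold change of 0.06. Both counts are near the shares over all tested genes, 8.11% and 10.7%. The higher calls numbered 7 without shscr-ctr replicate 2 and 2 or 3 without any other library, and the lower calls ranged from 1 without shscr-ctr replicate 1 to 4 without shNumb-ctr replicate 2. Isg20, an RNA exonuclease, went from 4.74 ± 0.129 to 6.69 ± 0.539 FPKM (log2 0.42, limma adjusted p = 0.00505) and the GTPase gene Ifi47 from 4.13 ± 0.306 to 5.29 ± 0.0194 (log2 0.30, adjusted p = 0.0143). The membrane protein gene Ifitm3 went from 222.7 ± 17.99 to 169 ± 1.67 (log2 -0.39, adjusted p = 0.00368) and Ifi30, a lysosomal thiol reductase, from 353 ± 8.16 to 320 ± 8.76 (log2 -0.14, adjusted p = 0.0183), which kept its call in 11 of 14 alternatives (adjusted p up to 0.0669). Of 16 tested nuclear partners and effectors described for p204 or its relatives, Trp53, Spi1 and Hras fell and 0 rose, where 10.7% of all tested genes were called lower. Spi1, which encodes the macrophage factor PU.1, went from 95.1 ± 1.96 to 86.1 ± 1.49 (log2 -0.14, adjusted p = 0.0137), Trp53 from 104 ± 1.52 to 93.2 ± 2.33 (log2 -0.15, adjusted p = 0.0112) and Hras from 17.4 ± 0.130 to 14.6 ± 0.999 (log2 -0.24, adjusted p = 0.0170). Spi1 and Hras kept their calls in 13 and 12 of 14 alternatives, and their highest adjusted p was 0.0519 and 0.0529.

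As for the named target of the hairpin, Numb had 35.8 to 36.7 FPKM in the libraries labelled shscr-ctr and 37.17 to 39.98 in those labelled shNumb-ctr (log2 0.08, limma adjusted p = 0.137), so it goes against the label and every direction above is one between labels. Of the microglial and macrophage markers 12 of 14 passed the filter and were tested. P2ry12 was below the filter, and Sall1 was listed at 0. Their sum was 1642 to 1681 FPKM in the controls and 1759 to 1906 in the shNumb-ctr libraries, higher in each of the latter as for the tested HIN-200 members. The sum does not describe each marker, since Spi1, which is among them, was called lower, as given above. The part of this sum in the results was not tested. Marker sums of neurons, astrocytes, lymphocytes and fibroblasts were each below 1 FPKM in every library, and those of oligodendrocytes and endothelial cells were at most 2.37 and 6.499. The endothelial sum was 3.47 to 4.11 in the controls and 5.79 to 6.499 in the shNumb-ctr libraries, and its part in the results was not tested. Of the 6 endothelial markers only 1, Vwf, passed the filter, and Cldn5 was listed at 0. In bulk RNA a higher level per cell and a larger share of expressing cells cannot be told apart.

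**Figure D5:**
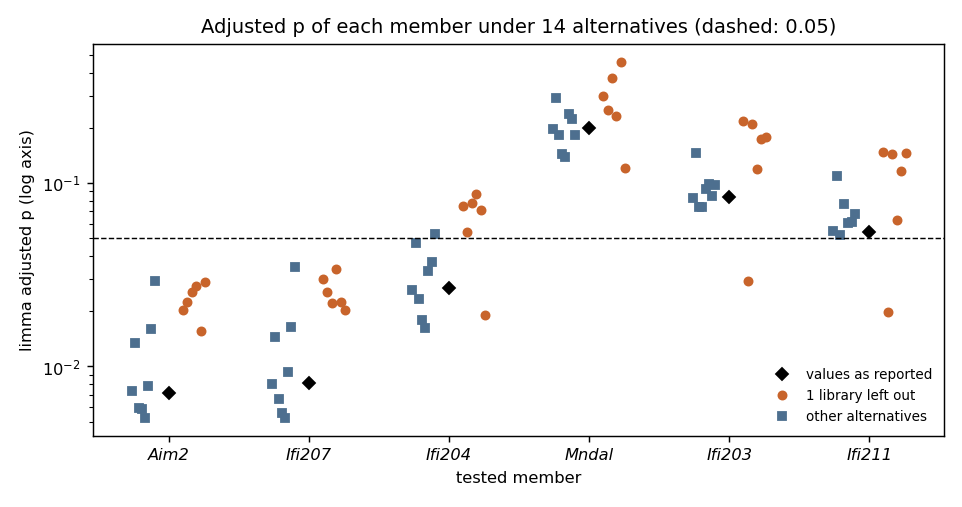
Limma adjusted p (log axis) of the 6 tested members for the values as reported, with 1 library left out, and under the other alternatives, with a dashed line at 0.05. Aim2 and Ifi207 stay below the line throughout, Ifi204 lies on both sides, and Mndal stays above it.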

How the data were processed

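BV2 RNA was sequenced in 6 libraries, per the labels. The authors deposited one value per gene and library, read here as FPKM because the values are fractional, never negative and sum to between 451077 and 455561 per library. The file headers name no unit. Tools named in the submitters' processing notes are CASAVA and DESeq2, with no role. For the aligner, counting rules, strand setting, build and annotation: not given in the sources used here. Of the listed names, 556 are of a form StringTie assigns. Counts were not used here and depth is unknown, so no counting interval is given.

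Values were analysed as log2(FPKM + 1), which understates changes of low genes. Genes with at least 1 FPKM in at least 3 libraries (10594) were fitted in limma 3.58.1 (R 4.3.3) with a mean-dependent prior variance, two-sided, with Benjamini-Hochberg adjustment over all of them. The fit was tested on simulated data. Alternatives were 14: 8 settings and each of 6 libraries left out. GENCODE M21 and RefSeq (GRCm38.p6) gave positions and sequences only; 21995 of 22672 gene IDs were found in GENCODE. Python 3.11.15 was used for sequences.

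The members and gene lists were chosen with earlier results of these data known. Named genes are all members, from each list up to 2 called genes per direction (all where 5 or fewer were called), the 3 genes most like Ifi204 and Aim2, and Numb. Pycard, Casp1, Gsdmd, Il18, Il1b, Cxcl10, Cgas, Tbk1, Irf9, Irf7 and Cadm3 were added with their values known. Some genes that this rule names are not reported here.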

Additional observations from a re-analysis of the deposited data

How the results depend on the processing

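All 6 tested members kept a positive log2 fold change in each alternative that tested them. Of the 6, 3 were called higher under 7 of 8 settings that kept all libraries. With the replicate number as a block, Ifi204 had a log2 fold change of 0.20 and a limma adjusted p of 0.0529, and its call was lost. The labels do not say that the numbers pair the libraries. Deviations of same-numbered libraries correlated at 0.007, 0.012 and 0.047, and those of other pairs at -0.088 to 0.066. Such values cannot show whether libraries of the same number were handled together. The block left 520 genes called higher and 559 lower over the whole table, against 859 and 1130. With 1 library left out, 499 to 671 genes were called higher. The lower genes then numbered 465 to 869. Over the same fits the log2 fold change of Ifi204 was 0.17 to 0.24, of Ifi203 0.16 to 0.26, of Ifi211 0.25 to 0.41, of Mndal 0.05 to 0.17, of Aim2 0.20 to 0.24 and of Ifi207 0.20 to 0.23. Median-of-ratios rescaling gave 994 genes higher and 880 lower and quantile normalization 946 and 918, so that which direction had more calls turned with the scaling. Among the 16 interferon receptor and factor genes the block left 0 of 3 lower calls, and among the 41 interferon-stimulated genes 1 of 4, where median-of-ratios rescaling gave 6 higher and 2 lower. Depth is unknown, and Ifi209 and Ifi213 entered a test only with no filter.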
